A study of Mus musculus with 20 samples.

Results

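The genes described here are 10 genes of the basement membrane, out of 55573 genes in the deposited count table. They are the collagen IV chains Col4a1 and Col4a2, the laminin chains Lama1, Lamb1 and Lamc1, the linker proteins Nid1 and Nid2, the proteoglycan Hspg2, the collagen-binding protein Sparc and the collagen chaperone Serpinh1. They were chosen by the measured level of Col4a1, which was the most abundant gene, by counts, in 1 of the 20 libraries, day 14 of the line WT#20D-17. The level of Col4a1 in that library, and the change from day 0 to day 14 in that line, are therefore descriptions and carry no test. All 10 genes were found in the table and all 10 passed the filters on low counts used below, although Lama1 had more than 3 counts in only 16 libraries.

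Basement membranes are thin sheets of extracellular matrix that lie under epithelia and around muscle, fat and nerve. Laminin trimers assemble at the cell surface, collagen IV trimers form a second network, and nidogens and perlecan join them. In the early mouse embryo the parietal endoderm, a layer descended from the primitive endoderm, secretes large amounts of the laminin built from Lama1, Lamb1 and Lamc1 and of the collagen IV built from Col4a1 and Col4a2, which together make up the thick Reichert's membrane.

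RNA was sequenced from embryoid body (EB) cultures, aggregates in which pluripotent cells differentiate, to follow mouse induced pluripotent stem cell (iPSC) lines with and without Nox4, an NADPH oxidase that makes reactive oxygen species. The lines were WT#1-4 and WT#20D-17, both wild type, and Nox4-/- #5-8 and Nox4-/- #5-23, both lacking Nox4 throughout. Each line was sampled on days 0, 3, 5, 7 and 14, with 1 library per line and day, so no line has a replicate on any day. The titles give day 14 as the last day while the protocol text of the labels gives day 10, and day 14 is used here. All 4 lines shared the same history: embryonic fibroblasts made pluripotent with viral Oct4, Sox2, Klf4 and c-Myc, grown on mouse embryonic fibroblast feeder cells with LIF, aggregated in hanging drops without LIF and plated on gelatin. A line is 1 clone, so differences between lines cannot be told apart from differences between clones. Total counts lay between 20294968 and 27708023 per library, with a median of 23878854, and 3 counts, taken as the smallest detectable amount, stood for 0.108 to 0.148 CPM (each count relative to the library total) before scaling.

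Levels are given as CPM scaled with edgeR's TMM factors, and, for comparisons between genes, per kilobase of exon as RPKM. The targeted gene was checked first. Nox4 had 7, 22, 21, 12 and 3 counts in WT#1-4 over the 5 days and 64, 165, 188, 203 and 56 in WT#20D-17. No library of Nox4-/- #5-8 had more than 2 counts, and Nox4-/- #5-23 had 0 in all 5.

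Libraries of 3 lines had little RNA of most of the 6 pluripotency genes examined, on day 0 as later; protein and colony measures of pluripotency were not analysed here. Nanog, a core pluripotency factor, was at 379 CPM on day 0 of WT#20D-17 and fell to 8.22 CPM by day 14, but it was at most 1.01 CPM in any library of the other 3 lines, day 0 included. Zfp42, a marker of naive pluripotency, was at 41.3 CPM on day 0 of WT#20D-17 and had 0 counts in all 15 libraries of the other lines. Dppa5a, another naive marker, was at 893 CPM against at most 2.25 CPM. Of the 6 genes, Fgf4 was the exception, at 58.3 to 193 CPM in the other 3 lines, and Utf1 was at 5.3 to 8.27 CPM in WT#1-4 against 308 CPM on day 0 of WT#20D-17. All 6 were well above the floor on day 0 of WT#20D-17.

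The parietal endoderm label was checked against 13 marker genes of primitive and parietal endoderm. All 13 were above 0 in every library of WT#20D-17, and their summed level was 579, 3118, 4332, 5077 and 4875 CPM over the 5 days. Sox7 and Sox17, transcription factors of primitive endoderm, reached 114 and 123 CPM on day 14, Gata4 and Gata6 reached 629 and 138 CPM, and Plat, the plasminogen activator that parietal endoderm secretes, rose from 4.39 to 173 CPM. Thbd, thrombomodulin, was low, at 0.244 CPM on day 0 and 14.1 CPM on day 14. In the other 3 lines the list was carried by Vim and Krt19, with sums of 490 to 2124 CPM, while Sox17 had 0 counts in every Nox4-/- library and was at most 0.53 CPM in WT#1-4, and Plat was at most 0.922 CPM. On days 0 to 7, 9 of the 13 markers were higher in WT#20D-17 than in the other 3 lines, Thbd was lower, and Fst, Krt19 and Vim did not pass, against 22.1% of all genes higher and 21.1% lower (edgeR's quasi-likelihood test, FDR under 0.01). Sox7 and Sox17 passed the filter on low counts only through WT#20D-17, so their calls were bound to come out higher and the count of 9 is no support for the label. Markers of visceral endoderm, the sister layer, were present in WT#20D-17 as well. In the other 3 lines the transcription factors Sox7, Sox17, Gata4 and Gata6 were at most 3.26 CPM, and the genes are called basement membrane genes throughout.

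Markers of other cell types also changed in level over the days of WT#20D-17. Those of fibroblasts, endothelium and trophoblast were at their highest on day 14, with the basement membrane genes, while those of visceral endoderm and smooth muscle were highest on day 7 and lower on day 14. The 10 visceral endoderm markers summed to 663, 1126, 2338, 4407 and 2000 CPM over the 5 days, led by Cubn on days 0 and 3, by Apob, an apolipoprotein, on days 5 and 7, and by Afp, alpha-fetoprotein, on day 14, against at most 7.97 CPM in the other lines. The 8 fibroblast markers summed to 33.6, 144, 457, 2740 and 3219 CPM, led by Col3a1 on days 7 and 14, against 7.4 to 122 CPM in the other lines. Smooth muscle markers, 7 in number, went from 33.9 to 1080 CPM by day 7 and stood at 581 CPM on day 14, with Acta2 highest on both of those days, and Tagln highest on day 0. The 8 endothelial markers went from 21.6 to 195 CPM, led by Cdh5 on day 14, but were at 159 to 543 CPM in the other lines, led there by Tek in 14 of 15 libraries. The 4 trophoblast markers were at most 1.02 CPM in sum until day 7 and at 209 CPM on day 14, when the giant cell hormone Prl3d1 alone stood at 133 CPM. Neural markers, 5 genes led by Nes in this line, went from 73.1 to 36.9 CPM, against 112 to 541 CPM in the other lines. What part these cell types had in the levels of the basement membrane genes was not tested, and in bulk RNA fewer cells of a type cannot be told apart from less RNA per cell.

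**Figure D1:**
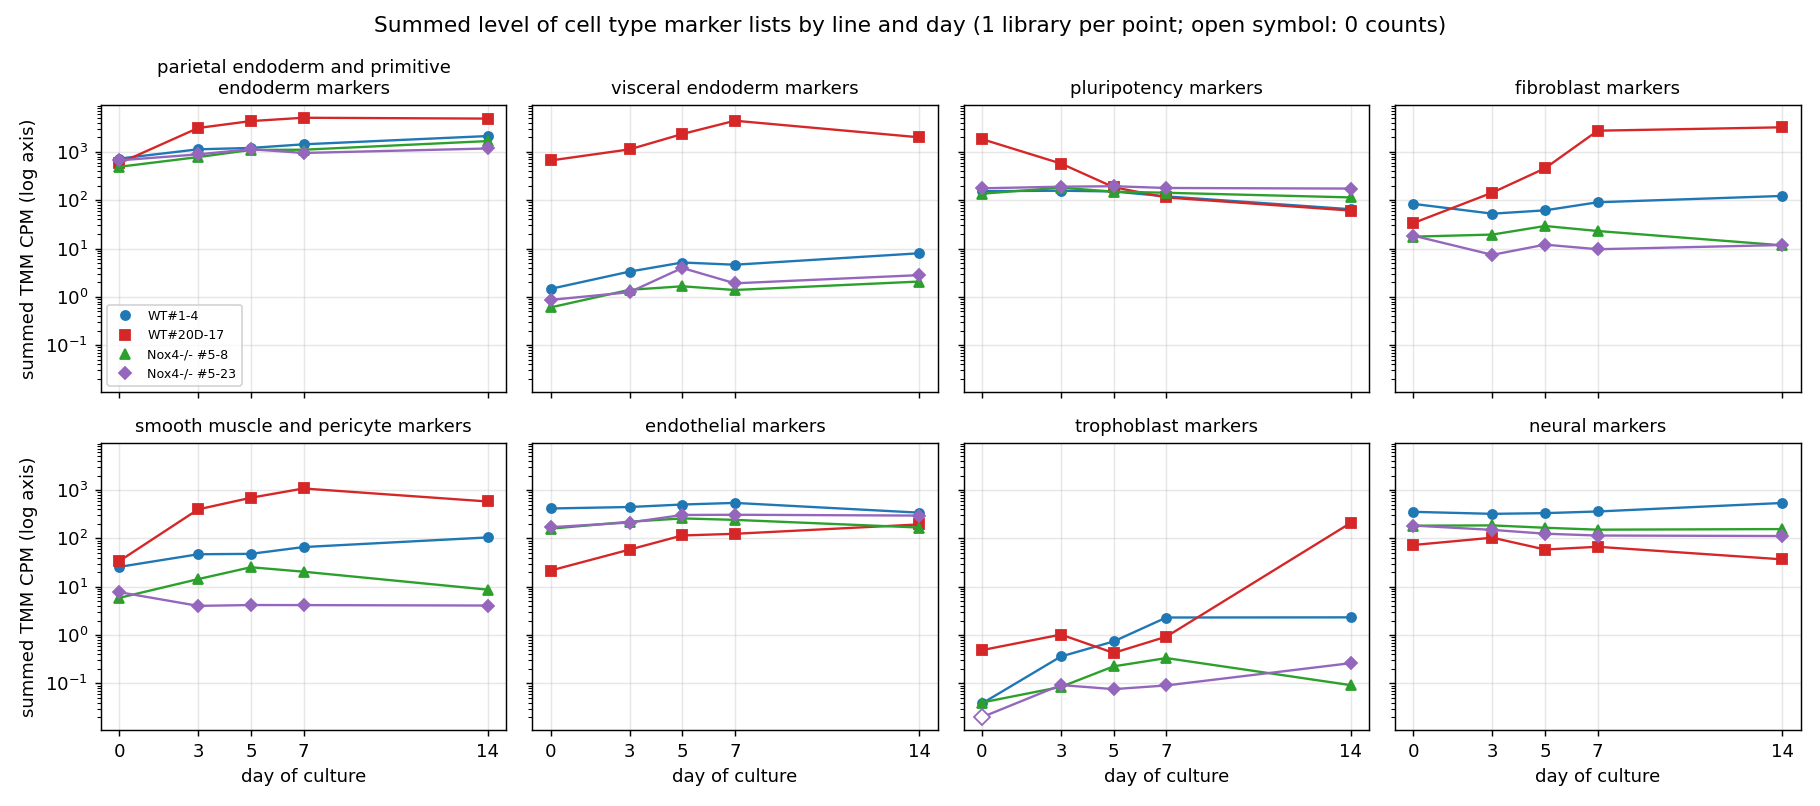
Summed TMM CPM (log axis) of 8 marker lists against day of culture, 1 point per library and 1 line per iPSC line, with 0 counts drawn as an open symbol at the axis floor. The visceral endoderm list in WT#20D-17 sat between 663 and 4407 CPM while the other 3 lines stayed at or under 7.97 CPM, and the pluripotency list of WT#20D-17 fell from 1836 to 61 CPM.

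In WT#20D-17 the 10 genes took a larger share of all counts on each later day sampled. They took 0.299% of all counts on day 0, 0.611% on day 3, 1.23% on day 5, 1.82% on day 7 and 8.47% on day 14. On day 14 they held 6 of the 7 most abundant places by counts, the remaining place going to the elongation factor Eef1a1, and all 10 were among the 100 most abundant genes. In the other 3 lines the share never passed 0.483%, the value of WT#1-4 on day 14, and it was lowest, at 0.141%, on day 0 of Nox4-/- #5-8. On days 0, 3, 5 and 7 the share in WT#20D-17 also lay above that of each other line on the same day.

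**Figure D2:**
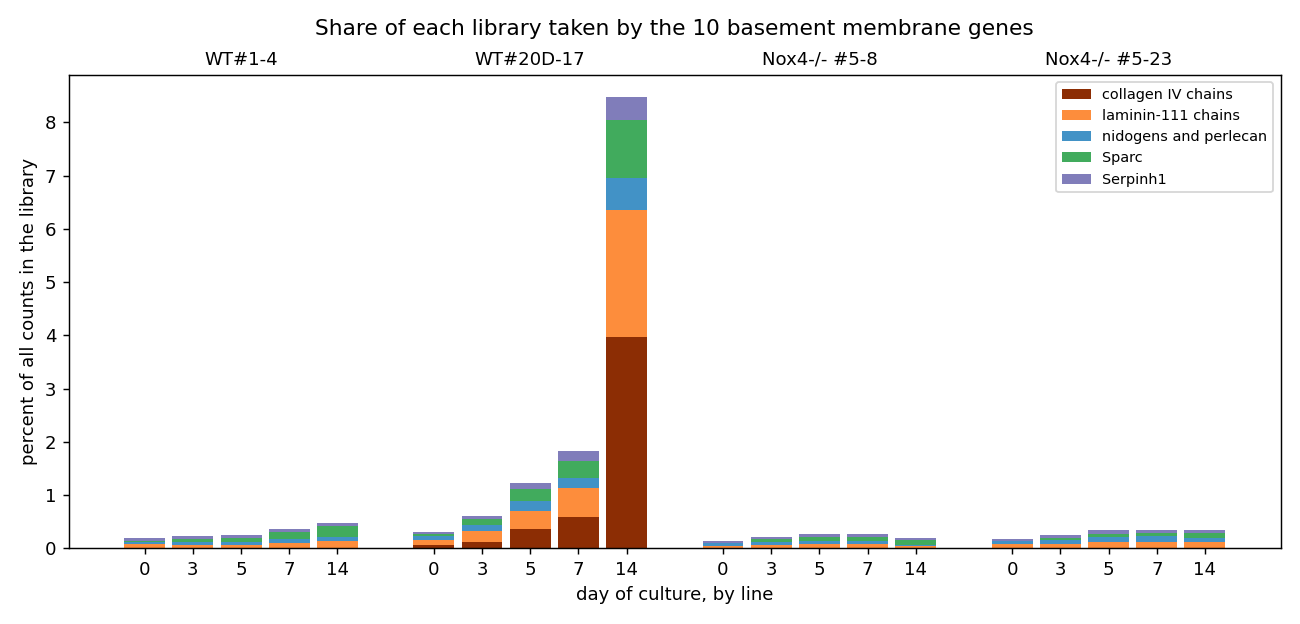
Percent of all counts in each library taken by the 10 genes, stacked by role, for 5 days in each of 4 lines (1 library per bar). The bar for day 14 of WT#20D-17 reached 8.47%, of which the collagen IV chains made 3.96% and the 3 laminin chains 2.4%, while all bars of the other 3 lines stayed at or under 0.483%.

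The collagen IV chains differed most between lines after Lama1. Col4a1 and Col4a2 encode the chains of the widespread collagen IV trimer and lie head to head on chromosome 8 of GRCm38, Col4a1 on the minus strand from 11198423 to 11312826 and Col4a2 on the plus strand from 11312805 to 11449287, so that their annotated starts share 22 bases. The stretch at these starts is shown, from RefSeq on GRCm38, because the genes lie so close; it is the plus strand at chr8:11312801-11312830, with the shared bases in capitals.
Col4a1 and Col4a2 starts: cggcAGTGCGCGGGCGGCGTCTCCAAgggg

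Col4a1 stood at 376, 798, 2156, 3610 and 25612 CPM in WT#20D-17 on days 0, 3, 5, 7 and 14. On the last day the 95% Wilson interval, which covers counting error only, was 25542 to 25682 CPM, and the gene alone made 2.38% of all counts. Over the 15 libraries of the other lines it ranged from 5.32 CPM, on day 14 of Nox4-/- #5-23, through a median of 22.9 to 42.7 CPM, on day 5 of Nox4-/- #5-8. The 5 libraries of WT#20D-17 thus lay above all 15 others, with no overlap on any day. By rank, Col4a1 went from place 382 to 150, 20, 9 and 1 in WT#20D-17, and it never rose above place 5170 elsewhere.

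Col4a2 stood at 195, 463, 1341, 2184 and 17042 CPM in WT#20D-17. It was at 21.8, 10.4, 16.2, 20.5 and 20.4 CPM in WT#1-4 and at 6.52, 10.7, 21.4, 21.7 and 6.17 CPM in Nox4-/- #5-8. In Nox4-/- #5-23 it fell from 8.37 CPM on day 0, 223 counts, to 1.02, 0.837, 0.907 and 0.225 CPM, the last being 6 counts. Here too all libraries of WT#20D-17 lay above the others, and Nox4-/- #5-23 was lowest from day 3 on. Collagen IV trimers of this kind hold Col4a1 and Col4a2 chains in a fixed ratio. Per kilobase of exon the ratio of Col4a1 to Col4a2 was 1.33 to 1.71 in WT#20D-17, 1.18 to 1.81 in WT#1-4 and 1.55 to 3.12 in Nox4-/- #5-8, but in Nox4-/- #5-23 it went from 2 on day 0 to 9.23, 16.3, 9.89 and 21 afterwards. The strand setting of the counting is not stated, and the overlap of the 2 genes is confined to their first 22 bases.

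**Figure D3:**
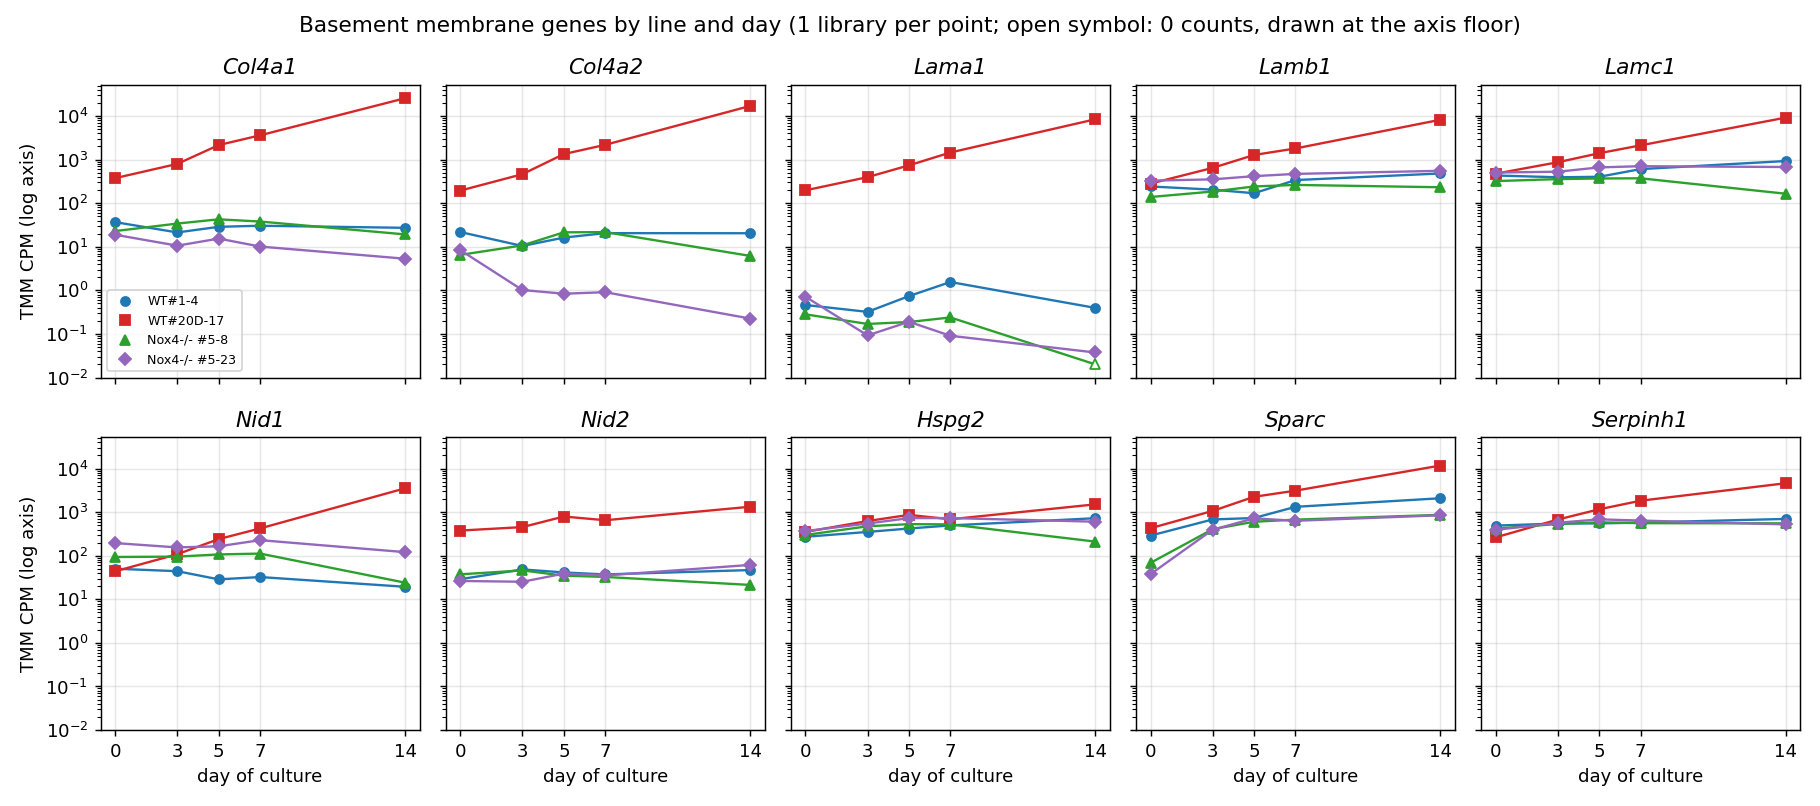
TMM CPM (log axis) of each of the 10 genes against day of culture, 1 point per library and 1 line per iPSC line, with 0 counts drawn as an open symbol. For Col4a1, Col4a2, Lama1 and Nid2 the points of WT#20D-17 lay above all others on every day, whereas for Serpinh1 its day 0 point, at 264 CPM, was the lowest of the 20.

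The laminin chains split into one that was nearly confined to WT#20D-17 and a pair found in all lines. Lama1, which gives the alpha chain of the early embryonic laminin, was at 197, 396, 739, 1456 and 8425 CPM in WT#20D-17. In WT#1-4 it had 12, 8, 20, 41 and 8 counts, at most 1.55 CPM. The Nox4-/- lines had 0 to 7 counts in #5-8 and 1 to 19 counts in #5-23, with 19 on day 0 as the highest. The lowest library of WT#20D-17 was above the highest of the other lines, and 4 libraries of the Nox4-/- lines were at or under the floor of 3 counts.

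Lamb1 and Lamc1, the beta and gamma chains shared by many laminins, were expressed throughout. Lamb1 stood at 282, 646, 1278, 1803 and 8221 CPM in WT#20D-17, at 242, 205, 169, 339 and 481 CPM in WT#1-4, at 139, 185, 242, 263 and 232 CPM in Nox4-/- #5-8, and at 329, 352, 418, 470 and 554 CPM in Nox4-/- #5-23. The groups overlapped on day 0, when Nox4-/- #5-23 was above WT#20D-17. Lamc1 stood at 476, 870, 1401, 2124 and 9190 CPM in WT#20D-17 and ranged from 165 CPM, on day 14 of Nox4-/- #5-8, through a median of 433 to 927 CPM, on day 14 of WT#1-4, in the other lines. Of the 5 libraries of WT#20D-17, 4 lay above every other library for Lamb1 and 3 for Lamc1.

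The alpha chain that went with Lamb1 and Lamc1 differed by line. Of the summed RPKM of the 5 laminin alpha chain genes, Lama1 made 32.6, 41.4, 45.7, 71.7 and 94.3% in WT#20D-17 and at most 0.0915% in the other lines. There the sum was shared by Lama3, the alpha chain of epithelial laminins, at 21 to 55.1%, Lama4, the alpha chain of vessel and muscle laminins, at 18 to 41%, and Lama5, a widespread epithelial and vascular chain, at 10.3 to 47.3%. In WT#20D-17 Lama3 and Lama4 were each at most 1.11%, and Lama5 fell from 66.4 to 5.58% of the sum while its own level was 473 CPM on day 0 and 586 CPM on day 14.

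**Figure D4:**
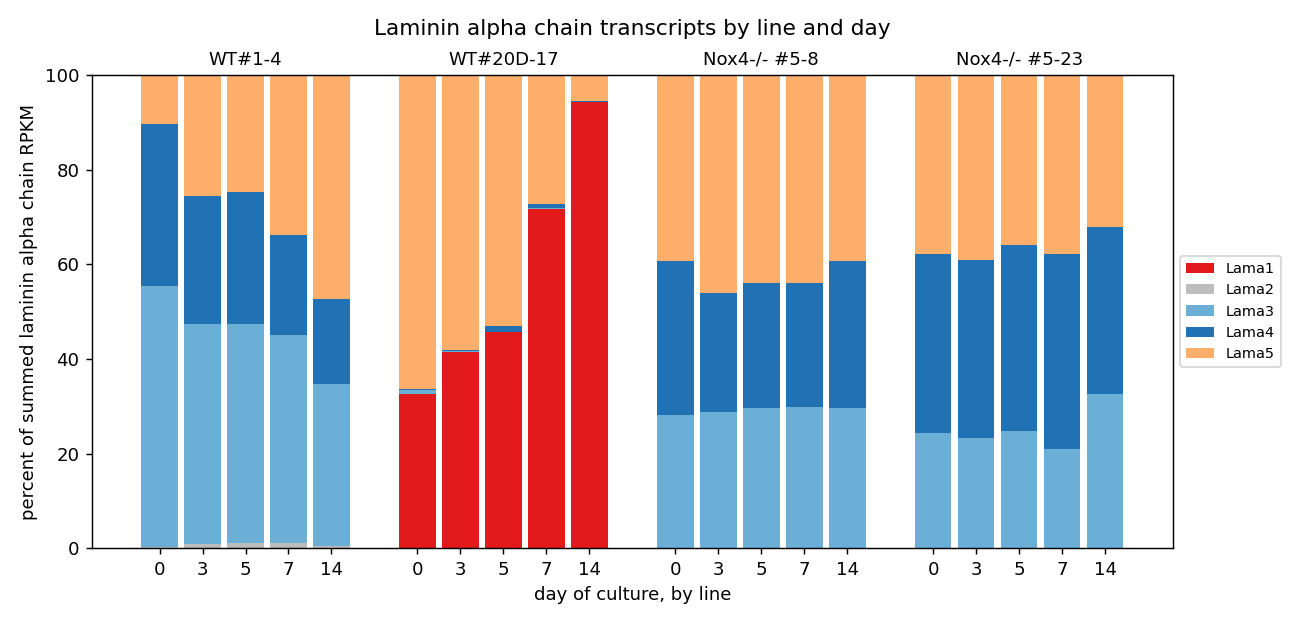
Percent of the summed RPKM of the 5 laminin alpha chain genes contributed by each gene, for 5 days in each of 4 lines (1 library per bar). Lama1 grew from 32.6% to 94.3% in WT#20D-17, and the other 3 lines were divided among Lama3, Lama4 and Lama5 on every day.

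The nidogens, which bridge laminin and collagen IV, and perlecan differed from each other. Nid1 was not high in WT#20D-17 at the start: it stood at 43.9 CPM on day 0, then at 108, 241, 424 and 3525 CPM. In Nox4-/- #5-23 it was at 195, 155, 165, 228 and 121 CPM, in Nox4-/- #5-8 at 93.6, 95.4, 107, 112 and 24.1 CPM, and in WT#1-4 at 50.4, 44.2, 28.7, 32.4 and 19.4 CPM. On day 0 both Nox4-/- lines were above both wild type lines, and from day 5 on WT#20D-17 was highest. Nid2 ran the other way, already at 379 CPM on day 0 in WT#20D-17 against 21.4 to 61.6 CPM over all 15 libraries of the other lines, and it reached 1331 CPM on day 14. Some reads given to Nid2 may belong to Rtraf, which overlaps it on the opposite strand and had up to 4075 counts.

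Hspg2, which encodes perlecan, the heparan sulfate proteoglycan of basement membranes, overlapped between lines. It stood at 351, 625, 867, 686 and 1511 CPM in WT#20D-17 and ranged from 211 through a median of 496 to 732 CPM in the other lines. The groups overlapped on days 0 to 7, and only day 5 and day 14 of WT#20D-17 were above every other library.

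Sparc, a secreted glycoprotein that binds collagen IV and is a classic product of parietal endoderm, was higher on day 14 than on day 0 in all 4 lines. It stood at 428, 1068, 2254, 3116 and 11746 CPM in WT#20D-17, at 290, 681, 734, 1326 and 2085 CPM in WT#1-4, at 68.7, 406, 603, 674 and 868 CPM in Nox4-/- #5-8, and at 37.9, 395, 721, 634 and 848 CPM in Nox4-/- #5-23. Both wild type lines were above both Nox4-/- lines on every day. Serpinh1, also called Hsp47, is the chaperone that holds newly made collagen chains in the endoplasmic reticulum. It went from 264 to 4608 CPM in WT#20D-17, passing 677, 1165 and 1831 CPM, but stayed between 393 and 700 CPM in all 15 other libraries.

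Promoter sequence was available in the RefSeq table for 7 of the 10 genes, as the 250 bases before the annotated start on GRCm38. Stretches before Lamb1, Nid1 and Serpinh1 are shown because the fitted rise by day 7 was larger in WT#20D-17 for these genes, among others described below. Bases inside the GENCODE gene were left out. The 3 stretches, each on its gene's strand, are chr12:31265043-31265233 (plus), chr13:13437352-13437550 (plus) and chr7:99353240-99353489 (minus). Capitals mark matches to CCAAT and GGGCGG on either strand.
Lamb1: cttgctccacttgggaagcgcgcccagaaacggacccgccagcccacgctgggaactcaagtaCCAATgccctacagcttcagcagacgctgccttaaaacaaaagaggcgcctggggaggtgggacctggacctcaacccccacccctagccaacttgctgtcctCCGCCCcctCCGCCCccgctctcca
Nid1: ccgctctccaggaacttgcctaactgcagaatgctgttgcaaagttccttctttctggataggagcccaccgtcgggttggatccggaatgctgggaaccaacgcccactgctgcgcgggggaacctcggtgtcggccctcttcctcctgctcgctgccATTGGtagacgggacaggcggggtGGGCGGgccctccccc
Serpinh1: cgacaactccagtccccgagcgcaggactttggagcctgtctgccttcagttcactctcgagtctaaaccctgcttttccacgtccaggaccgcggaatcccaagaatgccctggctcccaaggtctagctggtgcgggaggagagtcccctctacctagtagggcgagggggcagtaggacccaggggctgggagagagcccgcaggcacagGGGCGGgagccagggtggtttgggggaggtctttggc

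Motifs were searched by their letters on both strands of the 250 bases. GGGCGG, the GC box, was found before 5 of the 7 genes and in 32.7% of all 32851 windows, and CCAAT before 4 of the 7 and in 33.8%. The TATA box TATAAA (12.4% of windows), the GATA factor motif GATAA (22.6%), the Sox factor motif AACAAT (9.42%) and the AP-1 motif TGAGTCA (4.46%) were not found before any of the 7, which says only that these letters are not in these windows. The windows were 62 to 74.4% G and C for 6 of the genes and 54% for Sparc, against a median of 52.4% over all windows. The RefSeq start used for Sparc lies 3103 bases inside the GENCODE gene, so its window is not the stretch before the GENCODE start.

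WT#20D-17 was compared with the other 3 lines on days 0 to 7, which leaves out the day used to pick the genes. The line itself is the one the genes were picked in, so a higher level there is not independent of the choice. All 3 laminin chains, both collagen IV chains, Nid2 and Sparc were higher in WT#20D-17, 7 of the 10 genes, while Nid1, Hspg2 and Serpinh1 did not pass the test. Of all 17324 genes tested, 22.1% were called higher in this comparison and 43.2% in either direction (edgeR's quasi-likelihood test over 16 libraries with day as a term, Benjamini-Hochberg FDR under 0.01). The log2 difference was 10.48 ± 0.48 (SE) for Lama1, 6.22 ± 0.78 for Col4a2, 5.83 ± 0.46 for Col4a1 and 3.95 ± 0.16 for Nid2, genes whose 4 libraries in WT#20D-17 did not overlap the 12 others. The share of all genes without such overlap was not counted. A lack of overlap, here or elsewhere in the text, is therefore not read as particular to the genes named. For Lamb1, Sparc and Lamc1 it was 1.66 ± 0.32, 1.60 ± 0.36 and 1.24 ± 0.24, with libraries that overlapped, and Sparc was no longer called without Nox4-/- #5-8 (FDR of 0.0182 from the same edgeR test), while Hspg2 was called without Nox4-/- #5-23, at 0.54 (FDR 0.00614 by edgeR). The 4 libraries of WT#20D-17 come from 1 clone, and the p-values measure the spread between libraries of these lines only.

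The change from day 0 to day 7 was compared between WT#20D-17 and the other 3 lines, and 5 of the 10 genes passed with a larger rise in WT#20D-17. These were Serpinh1, by 2.32 ± 0.22 (SE) on the log2 scale, Nid1 by 3.28 ± 0.40, Lamc1 by 1.73 ± 0.26, Lamb1 by 2.02 ± 0.39 and Col4a1 by 3.41 ± 0.52. Of all genes tested 6.25% were called higher in this comparison and 11.1% in either direction. It set the same libraries against each other with terms for line, day and the difference in change (edgeR's quasi-likelihood test, FDR under 0.01). Lama1 and Col4a2, at 2.57 ± 0.71 and 3.88 ± 1.25, missed the threshold with FDR values of 0.0251 and 0.045, and Sparc was at -0.18 ± 0.77. Lamb1 was no longer called without Nox4-/- #5-8 or without Nox4-/- #5-23, with FDR values of 0.0117 and 0.024 from the same edgeR test. WT#20D-17 has 1 library on each day, so its own spread on a day is taken to be that of the other lines, and as the genes were picked in this line, its larger values are not independent of the choice.

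The levels of all 10 genes in WT#20D-17 were highest on day 14, the day of the library by which the genes were picked, so this is given without a test. Day 14 stood over day 0 by 87.5-fold for Col4a2, 80.2-fold for Nid1, 68.1-fold for Col4a1, 42.7-fold for Lama1, 29.2-fold for Lamb1, 27.4-fold for Sparc, 19.3-fold for Lamc1 and 17.5-fold for Serpinh1, and by 4.3-fold for Hspg2 and 3.52-fold for Nid2. All 10 genes were at least 2-fold higher, as were 23.7% of the 16516 genes whose counts averaged 10 or more. From day 7 to day 14, a step of 7 days against 2 or 3 for the others, Col4a1 went up 7.09-fold and Nid1 8.32-fold. Per day, no gene had its largest step there: the largest was from day 3 to day 5 for 7 of the 10 genes, from day 0 to day 3 for 2 and from day 5 to day 7 for 1. For Col4a1 the log2 change per day was 0.36, 0.72, 0.37 and 0.40 over the 4 steps. Between neighbouring days 8 of the 10 genes were higher at each step, and Nid2 and Hspg2 were lower on day 7 than on day 5. Around the choice itself, Col4a1 was first at 25612 CPM in this library, followed by Col4a2 at 17042 CPM and then Eef1a1 at 12885 CPM.

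Per kilobase of exon on day 14 of WT#20D-17, the order was Col4a1 at 3431 RPKM, Sparc at 3101, Col4a2 at 2575, Serpinh1 at 1886, Lamc1 at 1111, Lama1 at 870, Lamb1 at 829, Nid1 at 508, Nid2 at 257 and Hspg2 at 106. On day 0 of the same line Sparc was first at 113 RPKM, before Serpinh1 at 108 and Nid2 at 73.1, and Nid1 was last at 6.33. In the other lines Serpinh1, with a median of 227 RPKM over 15 libraries, and Sparc, with 178, led the order, while Col4a1, Col4a2 and Lama1 closed it at 3.07, 1.57 and 0.0247 RPKM. Without replicates on a day, neighbours in this order cannot be compared beyond counting error.

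In the other 3 lines, 3 of the 10 genes passed between day 0 and day 14, a share near that of all genes. Sparc and Lamb1 rose, Nid1 fell, and the remaining 7 of the 10 did not pass the test, against 34.3% of 17023 genes called in either direction, 18.4% higher and 15.9% lower (edgeR's quasi-likelihood test, line and day as terms, 15 libraries, FDR under 0.01). Sparc rose by 3.54 ± 0.40 (SE) on the log2 scale (FDR 2.071e-05 by edgeR), in 3 of 3 lines, and kept its call under each alternative run. Lamb1 rose by 0.89 ± 0.24 (FDR 0.00839 by edgeR) and Nid1 fell by 1.23 ± 0.30 on the log2 scale (FDR 0.00449 by edgeR), also in 3 of 3 lines each, but both lost their call when any 1 of the 3 lines was left out, with FDR values by edgeR of 0.01 to 0.0795 for Lamb1 and 0.0149 to 0.0312 for Nid1, and without the term for line, with 0.14 and 0.397. Lamb1 also missed the threshold with library size alone as the scaling (FDR 0.0101 by edgeR). Serpinh1, at 0.48 ± 0.15, and Hspg2, at 0.73 ± 0.33, did not pass, but Serpinh1 was called higher with upper quartile scaling (FDR 0.00992 by edgeR) and by DESeq2 (FDR 0.00771), and Hspg2 without Nox4-/- #5-8, at 1.15 (FDR 0.00908 by edgeR). The collagen IV chains were at -0.80 ± 0.33 for Col4a1 and -1.79 ± 0.87 for Col4a2, and Lama1 was at -2.33 ± 0.88. The median of the 10 genes was 0.44, beside 0.06 for all genes tested.

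**Figure D5:**
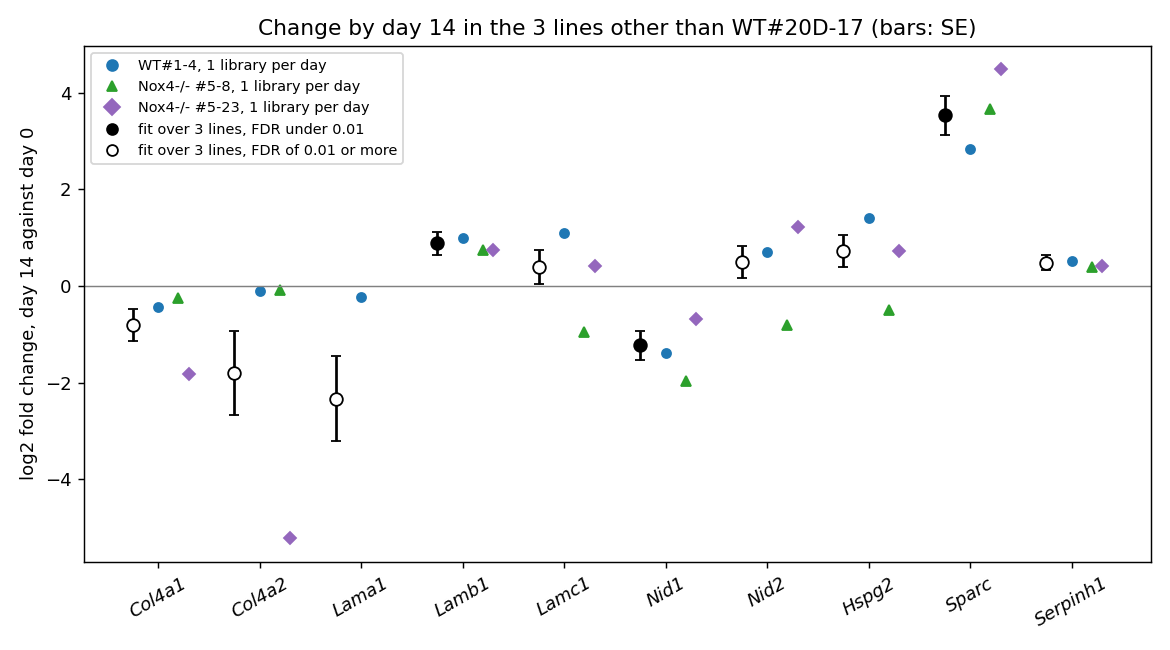
Log2 fold change from day 0 to day 14 for the 10 genes in the 3 lines other than WT#20D-17: black circles are the fit with its SE, filled where the FDR was under 0.01, and coloured symbols are single lines with 1 library per day. Lama1 is drawn for WT#1-4 only, since the Nox4-/- lines had 0 and 1 counts on day 14. Sparc sat at 3.54, with all 3 lines above 0, and Nid1 at -1.23, with every line below 0.

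Single lines differed within that fit. Lamc1 was 2.14-fold higher on day 14 in WT#1-4 and 1.34-fold in Nox4-/- #5-23, but 0.514-fold in Nox4-/- #5-8. Hspg2 showed the same split, at 2.67-fold, 1.64-fold and 0.705-fold, as did Nid2, at 1.62-fold, 2.33-fold and 0.571-fold. Nox4-/- #5-8 thus had the lowest day 14 level of Lamc1, Nid2 and Hspg2 among all libraries. Col4a2 was 0.0269-fold in Nox4-/- #5-23, 6 counts against 223, and 0.938-fold and 0.946-fold in the other 2 lines. These are ratios of 1 library to 1 library, and their intervals would cover counting error only.

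No gene of the 10 passed the threshold in the shorter steps. From day 0 to day 3, Sparc came nearest, at 2.24 ± 0.38 on the log2 scale (FDR 0.0109 by edgeR's quasi-likelihood test), and DESeq2 called it. An unadjusted p under 0.05 was found for 2 of the 10 and for 2349 of all 17023 genes. At the FDR threshold 0.523% of all genes were called, 0.511% higher and 0.0117% lower. From day 3 to day 7, 2 of the 10 were under that p, as were 4182 of 17023 genes, and DESeq2 called 0 of the 10. At the FDR threshold 0.258% of genes were called, 0.253% higher and 0.00587% lower. From day 7 to day 14, Nid1 came nearest at -1.21 ± 0.30 (FDR 0.0489 by edgeR) and was called by DESeq2. Again 2 of the 10 were under that p, as were 3444 of 17023 genes. At the FDR threshold 0.123% of genes were called, 0.0411% higher and 0.0822% lower.

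The genotypes were compared, as the study's design has it, between WT#1-4 and the 2 Nox4-/- lines with all days pooled. Nid1 was higher in the Nox4-/- lines, by 1.88 on the log2 scale (FDR 5.619e-05 by edgeR's exact test), and the other 9 genes did not pass, with Lama1 nearest at -1.77 (FDR 0.0426 by edgeR). Of the 33860 genes tested 5.62% were called, 1.65% higher and 3.97% lower. For Nid1 the Nox4-/- libraries were at 24.1 to 228 CPM and those of WT#1-4 at 19.4 to 50.4 CPM, so that only day 14 of Nox4-/- #5-8 fell within the wild type range. Without Nox4-/- #5-23 the call was lost (FDR 0.017 by edgeR), and when WT#20D-17 replaced WT#1-4 the value was -2.78, which includes the picked library, at 3525 CPM, and is given without a test. The days of a line are not independent samples of a genotype. With counts summed over days per line and both wild type lines used, edgeR's quasi-likelihood test called none of the 10 or of all genes. An unadjusted p under 0.05 from it was found for 2252 of all genes. These sums include the picked library, so nothing is read from them for the 10 genes. With day as a block, Sparc and Lama1 were also called lower in the Nox4-/- lines, at -1.19 and -1.99, by edgeR's quasi-likelihood test.

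Whether the change by day 14 differed between genotypes was tested over all 20 libraries, which include the picked one, so that the direction follows in part from the choice of genes and nothing is read from the counts that include it. None of the 10 genes was called, and 0.0156% of 19240 genes were, 0.00520% higher and 0.0104% lower (edgeR's quasi-likelihood test), while 8 of the 10, and 3471 of all genes, had an unadjusted p under 0.05. DESeq2 called 4 of the 10 lower in the Nox4-/- lines, and 215 of 15404 genes. Without WT#20D-17, which leaves 1 wild type line, the differences for Col4a1, Nid1 and Serpinh1 shrank to -0.79, 0.08 and -0.20 on the log2 scale. Other genes of the 10 still changed unequally between the remaining lines. Lamc1 changed by 1.1 in WT#1-4 against -0.96 in Nox4-/- #5-8 and 0.42 in Nox4-/- #5-23. For Col4a2 these values were -0.09, -0.08 and -5.22. Genotype and line cannot be told apart for these genes.

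The other collagen IV and laminin chains, receptors, enzymes and markers are given as counts, to be read against the 18.4% of all genes called higher and 15.9% called lower by day 14 in the 3 lines. In the 3 lines without WT#20D-17, 2 of 3 tested collagen IV chains rose by day 14, Col4a6 by 2.58 and Col4a5 by 2.11 on the log2 scale (edgeR, FDR under 0.01), but from low levels, at most 24.6 CPM. Among the other laminin chains 6 of 7 tested rose and none fell, among them Lamb3, a beta chain of epithelial laminin, at 6.44, Lama2, the alpha chain of muscle laminin, at 2.23 and Lama5 at 1.80. Lamb3 reached 89 CPM on day 14 of WT#1-4. In WT#20D-17 on days 0 to 7 none of the 8 was higher than in the other lines and 3 were lower, against 22.1% and 21.1% of all genes. Among the 3 were Lama3 and Lama4, named after their values were seen, at -7.37 and -5.65 on the log2 scale. From day 0 to day 7, the change of the 8 in WT#20D-17 differed from that in the other lines by a median of -0.95. It is given without a test.

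Of 10 receptors for the basement membrane tested, 7 rose and 1 fell by day 14 in the 3 lines, among them the laminin-binding integrins Itga3 at 4.20, Itgb4 at 3.85 and Itga7 at 3.06 and the collagen receptor Ddr1 at 2.92, and Itgb1, the most abundant over most libraries, rose by 1.25. Itga2, a collagen-binding integrin, fell by 2.34 on the log2 scale and is named after its value was seen. Itgb4, the partner of Itga6 in hemidesmosomes, started at 60.2 CPM and ended at 1444 CPM in WT#1-4. Its day 0 and day 14 levels were 47.2 and 576 CPM in Nox4-/- #5-8, 78.1 and 694 CPM in Nox4-/- #5-23, and 6.67 and 20.2 CPM in WT#20D-17. The libraries of WT#20D-17 and the other lines did not overlap for Itgb4.

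Of 12 genes for the modification and export of collagen, 5 rose by day 14 in the 3 lines, none fell and 7 did not pass. Those that rose included the prolyl hydroxylase subunits P4ha1 and P4ha2, at 3.41 and 3.40, and the lysyl hydroxylases Plod1 and Plod2, at 1.55 and 0.77, while P4hb, the most abundant of the list, did not pass at 0.30. In WT#20D-17 the summed level of the 12 genes was 1169, 1970, 3016, 4227 and 9699 CPM, with P4hb at 454 CPM on day 0 and 3668 CPM on day 14. From day 0 to day 7, the change of the 12 in WT#20D-17 exceeded that in the other lines by a median log2 of 1.19. It is given without a test.

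Of 14 other basement membrane components, 2 rose and 1 fell by day 14 in the 3 lines. Tinagl1, a tubulointerstitial nephritis antigen-like glycoprotein, rose by 4.81, Ntn4, a netrin that binds laminin, rose by 3.15, and Fbln1, a fibulin, fell by 3.20 on the log2 scale. In WT#20D-17 Tinagl1 stood at 4.8, 51.1, 140, 160 and 1807 CPM and Fbln1 at 58.4 CPM on day 0 and 295 CPM on day 14. On days 0 to 7, 6 of the 14 were higher in WT#20D-17 and 2 lower, against 22.1% and 21.1% of all genes. Among 7 matrix proteases and inhibitors, 3 inhibitors rose in the 3 lines and none fell, Timp3 by 5.17, Timp1 by 2.06 and Timp2 by 1.26. In WT#20D-17 Timp3 went from 16.3 to 187 CPM and Timp2 from 5.37 to 360 CPM.

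Markers of cell types in the 3 lines were called as follows. By day 14, 5 of 11 tested parietal and primitive endoderm markers rose and none fell, led by the keratins Krt19 at 5.99, Krt8 at 5.34 and Krt18 at 4.94, which many epithelia share, and then Pth1r at 1.17 from at most 5.9 CPM. Of the visceral endoderm markers 2 of 10 could be tested and neither passed. Endothelial markers gave 2 of 6 higher, Cdh5 at 3.67 and Esam at 2.22, smooth muscle markers 1 of 5 higher and 1 lower, Tagln at 2.66 and Pdgfrb at -4.08, and fibroblast markers 1 of 7 higher, Pdgfra at 2.01. Of the neural markers 2 of 5 fell, Sox1 and Nes by 0.86 and 0.76 on the log2 scale, the 1 testable trophoblast marker, Elf5, rose by 4.44 from at most 1.67 CPM, and none of 4 pluripotency markers passed.

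The genes most like Col4a1 over the 20 libraries were sought by the correlation of log2(CPM + 1) among 16506 genes. They were Adamts15 (Pearson's r of 0.98), Plat (0.979), Adamts9 (0.979), Mpzl1 (0.978), Acp5 (0.976), Adgrg1 (0.975), Creb5 (0.974), Pik3ap1 (0.974), Tfpi (0.974) and Creb3l1 (0.974). The libraries share lines and WT#20D-17 stands apart, so these values mostly set 5 libraries against 15. Over the 15 libraries alone the same genes had r of 0.0514 to 0.644. Among the 10 basement membrane genes, Col4a2 was the one that followed Col4a1 in both settings, with r of 0.983 over 20 and 0.931 over 15 libraries. Lama1 went from 0.974 to 0.428, and Lamb1 from 0.8 to -0.602.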

How the data were processed

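The authors prepared stranded mRNA libraries, mapped paired-end reads to mm10 (GRCm38) with STAR 2.6.0c and estimated expected counts per gene with RSEM 1.3.1, with versions from the submitters' processing notes and no strand setting given in the sources used here. The deposited expected counts are not normalized. Of the values, 9.92% had decimals, because RSEM divides reads among genes, and all were rounded. Gene names and coordinates came from GENCODE M21, which held 55480 of 55573 identifiers.

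Tests used edgeR 4.0.16 and DESeq2 1.42.0 in R 4.3.3 over all genes that passed edgeR's expression filter, and the exact test used the 33860 genes with a nonzero value. TMM scaling and a Benjamini-Hochberg FDR under 0.01 were used. Day comparisons took 15 libraries of the 3 lines other than WT#20D-17, with line as a replicate block, since the titles give the same line on each day. The genes and lists were chosen with earlier results of these data known, and both comparisons of WT#20D-17 with the other lines were added after the data were seen. Named genes are the 10 members, per list at most the 4 largest called changes by day 14 and the most abundant gene, the 10 genes most like Col4a1, the 5 most abundant genes of the picked library and Nox4; marker genes used to check labels are outside this rule. Alternatives were the normalization, filter, tool, threshold, block and leaving out each line. The scripts were tested on simulated data with known changes. These lacked any other difference between lines, so that test gives no error rates for the present libraries. P-values measure only the spread between these libraries. One gene of the laminin list is not reported here.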

Additional observations from a re-analysis of the deposited data

Results flagged for a closer look

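For the genes named here the fitted rise from day 0 to day 7 was larger in WT#20D-17 than in the other 3 lines. The log2 difference was 3.41 for Col4a1, 2.02 for Lamb1, 1.73 for Lamc1, 3.28 for Nid1 and 2.32 for Serpinh1. The median over all genes was 0.01. These genes are listed because they passed the threshold of the edgeR test described in the Results. The basement membrane genes that missed it are left out. Among those, Col4a2 had a larger fitted difference than any gene listed, Lama1 also rose more in WT#20D-17, and the difference of Sparc was negative. WT#20D-17 has no spread of its own on a day, so that test took its spread to be that of the other lines. The genes were picked in this line, which is 1 clone with 1 library on each day, so the differences are not independent of the choice. Summed markers of visceral endoderm, fibroblasts and smooth muscle were also higher on day 7 than on day 0 in that line, and their part was not tested.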

How the results depend on the processing

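Results are given as numbers of the 10 genes called. For day 14 against day 0 in the 3 lines, 3 were called. This became 1 with no replicate block, 2 with library size alone, 4 with upper quartile normalization or DESeq2, 5 at an FDR under 0.05, and 1 to 2 when a line was left out. For day 3 against day 0 it went from 0 to 1, Sparc, with upper quartile normalization, library size alone, no filter on low counts, DESeq2 or an FDR under 0.05, and was 0 to 1 without a line. For day 14 against day 7 it went from 0 to 1, Nid1, with no filter, DESeq2 or an FDR under 0.05. For Nox4-/- against WT#1-4, 1 was called, 3 with day as the replicate block, 9 when WT#20D-17 replaced WT#1-4 (8755 of 33860 genes), 7 with both wild type lines (4074), 0 with the line as the unit, 2 without day 0, and 0 to 3 without a Nox4-/- line. For the genotype difference in the day 14 change, 0 became 4 with DESeq2 (547 of 15404 genes) and was 0 to 7 without a line, the 7 without WT#1-4 (1710 of 19927). The counts of 9, 7 and 4, and the 0 with the line as the unit, include the library by which the genes were picked. So do the counts for the genotype difference, except without WT#20D-17. All of these follow in part from that choice, and nothing is read from them. The cause of these shifts was not tested.

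Signs turned where WT#20D-17, with its picked library, entered: Nid1 by day 14 went to 1.27 with all 4 lines; against the Nox4-/- lines, Lamb1 went to -2.98 when WT#20D-17 replaced WT#1-4 and -2.10 with both wild type lines, and Nid1 to -2.78, -1.80 and, with the line as the unit, -1.56. Values that were not called also turned without it, such as Lamb1 against WT#1-4 to -0.44 without Nox4-/- #5-23 and Lamc1 by day 14 to -0.17 without WT#1-4. The number of all genes called ranged from 2411 to 8167 for day 14 against day 0 (5840 as reported) and 0 to 433 for day 3 against day 0 (89). It was 0 to 1158 for day 7 against day 3 (44) and 0 to 755 for day 14 against day 7 (21). For genotype it was 0 to 8755 (1903), and for the genotype difference with all lines kept 0 to 547 (3). For WT#20D-17 against the other lines on days 0 to 7 it was 6094 to 9739 (7483), beside 6 to 8 of the 10 genes. In the day 7 change of WT#20D-17, upper quartile scaling moved the median over all genes from 0.01 to -0.11. Library size alone moved that of day 14 against day 7 to -0.10. Lama1 outside WT#20D-17, at 0 to 41 counts, was limited by depth, and it was not tested without WT#1-4.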
